A study of Homo sapiens with 8 samples.

Results

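The genes of glucose breakdown and of the response to low oxygen were followed in HCT-116 cells under different states of CDK2 inhibition. A given list held 39 gene names, and every non-control probe whose name in the scanner files is on that list was taken. Of these names 38 were found, PKM being listed in the files only under its older name PKM2, and they have 52 of the 50599 probes and are 38 of the 32080 named genes on the array. A probe entered the tests if the scanner software marked it as well above background throughout at least 1 group, which held for 48 of the 52 probes and 36 genes. SLC2A3, a neuronal-type glucose transporter, and LOX, a lysyl oxidase that cross-links collagen, had no probe well above background on any array, and 1 of the 2 EGLN3 probes was not tested. Each gene is described by its brightest tested probe unless another probe is named. Of the 36 genes, 35 were well above background on all 8 arrays, CA9 being the exception.

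The HCT-116 line comes from a human colorectal carcinoma, and RNA of 4 groups with 2 biological replicates each was hybridized to single-colour Agilent arrays. WT was the parental line without drug. WT+NU6102 was the same line after 24 h in 20 µM NU6102, a purine inhibitor of CDK1 and CDK2. CDK2-/- cells were a purchased derivative of HCT-116 in which the CDK2 gene was deleted, and they received no drug. R50 cells were a resistant population derived from HCT-116 in 50 µM NU6102 and kept in that concentration, so they differed from WT+NU6102 both in dose and in length of exposure. All groups grew in the same medium, and the labels name no low-oxygen culture for any of them. A single knockout line and a single resistant population stand for their groups, so that a feature of that line and an effect of the deletion or of the selection cannot be told apart.

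Glycolysis splits glucose to pyruvate through a chain of enzymes that begins with uptake by a transporter and trapping by hexokinase and ends with pyruvate kinase, after which lactate dehydrogenase makes lactate or the mitochondria take over. Many of these enzymes, together with genes for pH control, vessel growth and mitophagy, are switched on by the hypoxia-inducible factors, in which an oxygen-regulated subunit (HIF1A or EPAS1) pairs with ARNT. With oxygen present, prolyl hydroxylases (EGLN1, EGLN3) mark the oxygen-regulated subunit for destruction, so this control acts chiefly on protein and not on the HIF transcripts measured here. The factors recognise a short core in DNA, ACGTG or GCGTG.

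Levels below are log2 intensities from which the 75th percentile of the array was subtracted, so that 0 marks a probe at that percentile, and a difference of 1 is a 2-fold difference. The arrays of WT and WT+NU6102 shared a slide, as did those of CDK2-/- and R50, so the drug was compared with no drug, and R50 with CDK2-/- cells, within a slide. In CDK2-/- against WT, R50 against WT and R50 against WT+NU6102 the slide and the group cannot be told apart. The spots well above background numbered 32376 to 36206 per array, and no spot was marked as saturated. The probe of the deleted gene, CDK2, read -0.76 on both WT arrays and -1.56 and -1.51 in CDK2-/- cells, a fall of 1.71-fold with signal still above background. All 5 epithelial markers (EPCAM, CDH1, KRT8, KRT18 and KRT19) were well above background on all 8 arrays, as were 5 of 11 markers of blood, endothelial and fibroblast cells, and the 7 of these 11 that were tested read between -5.07 and -0.51.

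The stretches of 250 bases before the transcription start of 5 members are shown because their levels differ most between the groups or, for SLC2A1, because no HIF core lies in the stretch. They come from RefSeq (GRCh38.p14), run 5′ to 3′ along the gene, and capitals mark ACGTG and GCGTG on either strand, so CACGT and CACGC as well.
ALDOC, chr17:28576896-28577145, minus strand: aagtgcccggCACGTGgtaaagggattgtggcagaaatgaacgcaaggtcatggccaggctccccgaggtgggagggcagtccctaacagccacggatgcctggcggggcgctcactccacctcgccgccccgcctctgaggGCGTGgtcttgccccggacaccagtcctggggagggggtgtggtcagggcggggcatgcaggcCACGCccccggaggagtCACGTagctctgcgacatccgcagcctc
ENO2, chr12:6914330-6914579, plus strand: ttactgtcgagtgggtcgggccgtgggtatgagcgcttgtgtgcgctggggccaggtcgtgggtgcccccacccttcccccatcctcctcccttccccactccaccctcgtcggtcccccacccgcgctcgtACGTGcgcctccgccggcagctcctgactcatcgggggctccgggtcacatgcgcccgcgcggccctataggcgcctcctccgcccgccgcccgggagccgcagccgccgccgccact
CA9, chr9:35673678-35673927, plus strand: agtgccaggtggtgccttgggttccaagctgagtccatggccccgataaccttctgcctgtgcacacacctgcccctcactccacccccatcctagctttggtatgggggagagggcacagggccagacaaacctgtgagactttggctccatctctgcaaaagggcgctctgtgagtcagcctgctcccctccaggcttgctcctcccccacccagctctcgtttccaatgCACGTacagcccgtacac
ANGPTL4, chr19:8363905-8364154, plus strand: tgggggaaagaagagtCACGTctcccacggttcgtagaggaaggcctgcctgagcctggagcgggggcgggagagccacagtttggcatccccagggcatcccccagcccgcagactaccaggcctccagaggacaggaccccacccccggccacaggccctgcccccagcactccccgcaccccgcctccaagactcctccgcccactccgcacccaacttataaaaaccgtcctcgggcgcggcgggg
SLC2A1, chr1:42958869-42959118, minus strand: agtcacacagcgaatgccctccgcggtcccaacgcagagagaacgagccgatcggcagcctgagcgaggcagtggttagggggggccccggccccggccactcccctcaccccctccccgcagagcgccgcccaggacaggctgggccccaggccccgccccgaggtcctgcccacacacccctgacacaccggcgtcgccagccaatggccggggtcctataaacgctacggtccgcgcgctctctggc
In CA9 the only match begins 18 bases before the start, and in ENO2 it begins 118 bases before it. ALDOC held matches at several places, among them a palindrome, CACGTG, that reads as the core on both strands. Of the 34 members matched to the promoter table, 23 held at least 1 of the motifs in these 250 bases (67.6%), against 43.2% of all 35116 promoters. ACGTG was in 44.1% of the members' stretches and 18.5% of all, GCGTG in 35.3% and 32.2%. SLC2A3, VEGFA, BNIP3L and NDRG1 have no entry. These counts describe letters and not binding, and a stretch without the letters may have them elsewhere.

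Each comparison was tested with limma over all 28673 tested probes, and a gene passed where p, adjusted by Benjamini-Hochberg, was under 0.05. The share of all 19506 named genes that passed is given beside each count of members, since large parts of the transcriptome differed. In every comparison a larger share of members than of all genes passed, by the least in CDK2-/- against WT (36.1% against 32.6%), and in none did the members move in one direction. The members were bright, with a median level of 2.26 in WT cells, and the list was chosen with earlier results of these data known. Whether signal strength or that choice adds to the members' shares was not tested. Most differences were small. On the brightest probes, only SLC2A1, ALDOC, ENO2, NDRG1, CA9 and ANGPTL4 passed with at least a 2-fold difference in any comparison. Other probes of BNIP3L, described below, also did. So did the second HK2 probe, 2.04-fold lower in R50 than in WT+NU6102 (adjusted p = 0.000343). Over all 4 groups, 16 of the 36 genes (44.4%) differed at an adjusted p under 0.001 in the moderated F-test, against 23.5% of all genes. A lower level in bulk RNA can come from fewer cells with the transcript or from less of it per cell, which cannot be told apart.

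**Figure D1:**
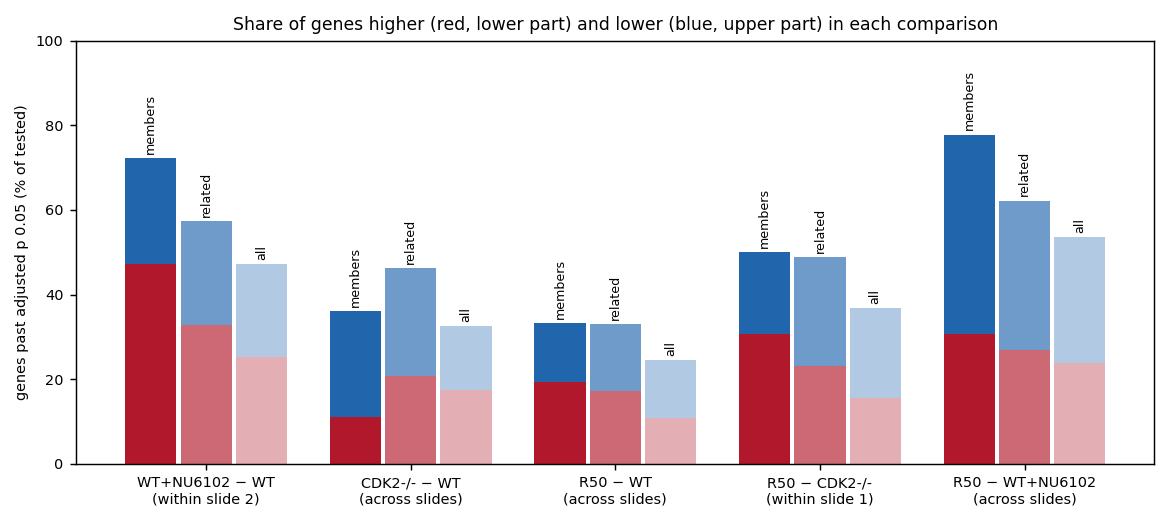
Share of tested genes that passed at an adjusted p under 0.05 (vertical axis, percent) in each of 5 comparisons, for the 36 members, 82 related genes and all 19506 genes; red is the share that was higher in the first-named group and blue the share that was lower. The members' bar is the tallest of the 3 in every comparison but CDK2-/- against WT, where 36.1% of members stand between 32.6% of all genes and 46.3% of related genes.

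After 24 h of NU6102, the glucose transporter SLC2A1, both hexokinases, GPI, PFKP, ALDOA, PGAM1, ENO2 and LDHA rose in WT cells, while ALDOC, NDRG1, ADM and PDK1 fell and GAPDH, PGK1, TPI1, ENO1 and PKM2 did not pass. Of the 36 members, 26 passed, 17 higher and 9 lower, beside 47.1% of all genes (25.2% higher and 21.9% lower). The median difference was 0.16 over members and 0.04 over all genes. Within the glycolytic members 10 of 20 rose and 5 fell, and within the hypoxia members 7 of 16 rose and 4 fell. The rises reached 0.84 for SLC2A1, and none was 2-fold, whereas ALDOC and NDRG1 fell by more than that, beside 6.67% of all genes that passed with at least a 2-fold difference.

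In CDK2-/- cells the glucose transporter SLC2A1 rose by 1.64 and the enolase ENO2 fell by 1.15 against WT cells, and the other members that passed differed by less. The 13 members that passed, 4 higher and 9 lower, stand beside 32.6% of all genes (17.5% higher and 15.1% lower). The median was -0.07 over members and 0.03 over all genes. Of the 16 hypoxia members 6 fell (HIF1A, VEGFA, BNIP3, P4HA1, P4HA2 and ANKRD37) and only BNIP3L rose, while 3 of the 20 glycolytic members rose and 3 fell. SLC2A1 and ENO2 were the only members past 2-fold, beside 4.85% of all genes. The count lay between 6 and 7 without either WT array or either CDK2-/- array.

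The fewest members differed between R50 cells and WT cells. ALDOC and NDRG1 rose, by 0.998 and 0.66, and ANGPTL4 fell by 0.90. In all 12 members passed, 7 higher and 5 lower, beside 24.5% of all genes (10.9% higher and 13.6% lower), with medians of 0.04 over members and -0.03 over all genes. With quantile normalization the split was 9 higher and 2 lower. No member passed with a 2-fold difference in limma, ALDOC lying just under it and CA9 being past 2-fold only at an unadjusted p under 0.05, where it was the only 1 of 36, beside 2.73% of all genes at the adjusted threshold. The count fell to 4 and 5 without the first and the second WT array, to 6 without the first R50 array and to 7 without either WT+NU6102 array.

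Between the lines kept on the same slide, R50 cells had less SLC2A1 than CDK2-/- cells, by 1.48, and more ENO2 and ALDOC, by 1.42 and 1.16. Of the 36 members 18 passed, 11 higher in R50 and 7 lower, beside 36.7% of all genes (15.6% higher and 21.2% lower), and quantile normalization gave 13 higher and 5 lower. The medians were 0.05 over members and -0.06 over all genes. Of the 16 hypoxia members 6 were higher in R50 (VEGFA, BNIP3, P4HA1, P4HA2, NDRG1 and ANKRD37) and 3 lower (ADM, ANGPTL4 and BNIP3L, the last on its brightest probe only). Those past 2-fold were SLC2A1, ENO2 and ALDOC, beside 5.27% of all genes.

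The number of members apart was largest between R50 cells and WT cells given the drug for 24 h. R50 cells had more ALDOC and NDRG1, by 2.34 and 1.74, and less ANGPTL4, by 1.58. CA9, not well above background with NU6102, was higher in R50 by at least 6.97-fold over both R50 arrays and by at least 2.71-fold on the lower of them alone. In all 28 members passed, 11 higher in R50 and 17 lower, beside 53.5% of all genes (23.9% higher and 29.6% lower), with medians of -0.13 over members and -0.05 over all genes. Of the 20 glycolytic members 11 were lower in R50, among them HK2, PFKP, PGAM1 and LDHA, and 5 were higher. The 4 members past 2-fold stand beside 11.1% of all genes.

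**Figure D2:**
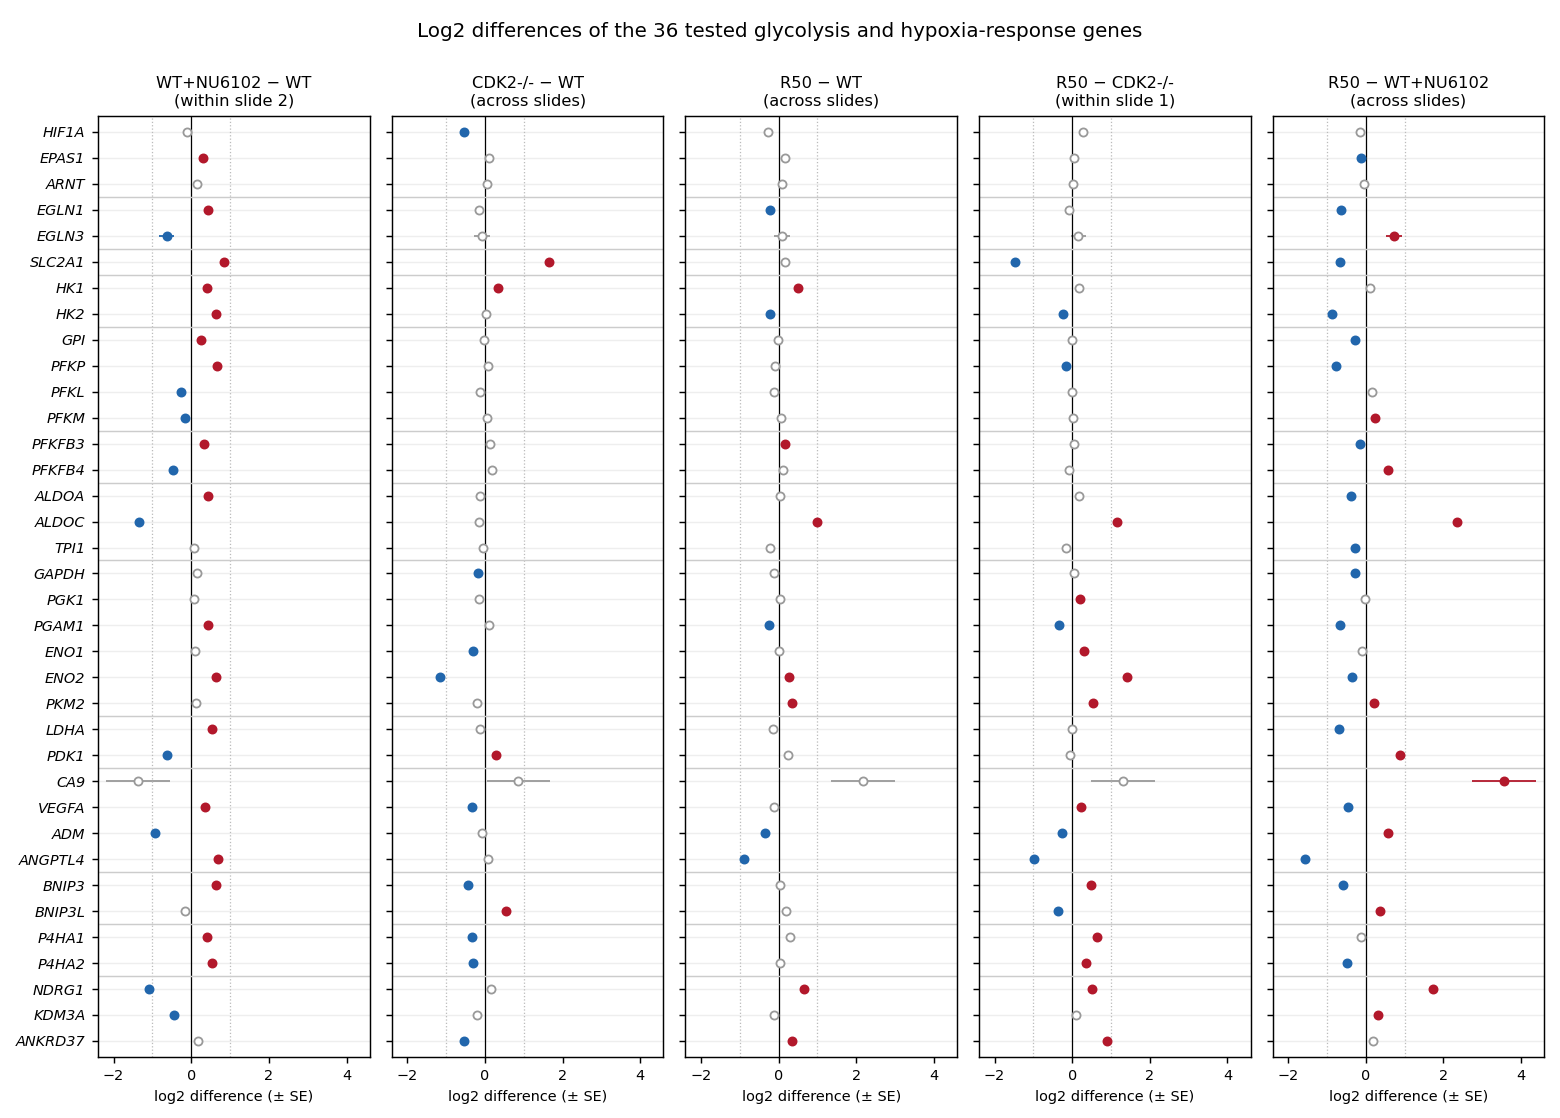
Log2 difference (horizontal axis, ± SE from the limma fit over 8 arrays) of each of the 36 tested members in the 5 comparisons; filled points passed at an adjusted p under 0.05 (red higher, blue lower in the first-named group), open points did not, and dotted lines mark 2-fold. ALDOC and NDRG1 lie left of zero after NU6102 and right of it in R50 against WT, and the bars of CA9 (SE 0.82) are wider than those of every other gene (at most 0.20).

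The transcripts of the HIF subunits differed little. HIF1A, measured at chr14:62214845-62214904 (hg19, as for all probe positions), read 1.74 and 1.65 on the WT arrays, 1.62 and 1.54 with NU6102, 1.22 and 1.09 in CDK2-/- cells and 1.53 and 1.32 in R50 cells. Its level was lowest on both CDK2-/- arrays, and that fall against WT, by 0.54 ± 0.09 (SE, adjusted p = 0.00945), was its only difference that passed. A second HIF1A probe, at chr14:62211472-62211531, was lower than WT in all 3 other groups, by -0.37 with NU6102, -0.51 in CDK2-/- cells and -0.41 in R50 cells, each past the test. The probes thus both passed only for CDK2-/- cells.

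EPAS1, the HIF subunit of longer-lasting and endothelial hypoxia responses, read 3.84 and 3.79 in WT cells, 4.09 and 4.12 with NU6102, 3.93 and 3.92 in CDK2-/- cells and 3.98 and 3.96 in R50 cells. The arrays with NU6102 were the highest and those of WT the lowest, with a rise of 0.29 ± 0.04 (adjusted p = 0.00383) between them. Its lower level in R50 than in WT+NU6102 (-0.14, adjusted p = 0.0473) was lost without each array in turn and turned to 0.053 under quantile normalization. ARNT, the constant partner, read -2.16 and -2.26 in WT cells, -2.07 and -2.05 with NU6102, -2.16 and -2.13 in CDK2-/- cells and -2.16 and -2.08 in R50 cells, and none of its differences passed.

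The prolyl hydroxylases went opposite ways with the drug. EGLN1, the main oxygen sensor in most cells, rose by 0.43 with NU6102 (adjusted p = 0.00215) and was lower in R50 than in WT by 0.22 (adjusted p = 0.0429), a call lost in 12 of 16 other settings (8 with another normalization, filter or fit and 8 without 1 array). EGLN3, itself a hypoxia target, fell by 0.63 ± 0.20 with NU6102 (adjusted p = 0.0475), a call lost in 9 of these 16. Neither differed past the test between CDK2-/- and WT cells.

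SLC2A1 encodes the glucose transporter GLUT1 and had the largest rise of any member in CDK2-/- cells. Its brightest probe, at chr1:43391874-43391933, read 2.33 and 2.50 in WT cells, 3.30 and 3.20 with NU6102, 4.07 and 4.03 in CDK2-/- cells and 2.68 and 2.47 in R50 cells. The CDK2-/- arrays were the highest and the NU6102 arrays next, with no overlap, whereas WT and R50 arrays overlapped. The difference from WT was 3.11-fold in CDK2-/- cells (1.64 ± 0.10, adjusted p = 0.000287) and 1.79-fold with NU6102 (0.84 ± 0.10, adjusted p = 0.00138), and 0.16 in R50 cells (adjusted p = 0.285). A second probe, at chr1:43396070-43396129 and taken from an Ensembl transcript, read between -3.79 and -3.16 on the 8 arrays and passed in no comparison.

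The hexokinases, which trap glucose as its phosphate, were both higher with NU6102, HK1 by 0.41 (adjusted p = 0.00964) and HK2 by 0.64 (adjusted p = 0.000459). HK1 was also higher in CDK2-/- cells, by 0.33, and in R50 cells, by 0.50 (adjusted p = 0.0117), calls lost in 8 and 4 of 16 other settings. HK2 was lower in R50 than in WT by 0.22, a call lost in 12 of 16, and the second HK2 probe gave -0.47.

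The next steps, isomerization and the committed phosphorylation, divided by isozyme. GPI rose by 0.26 with NU6102, a call lost in 5 of 16 other settings. PFKP, the platelet-type phosphofructokinase, rose by 0.67 with the drug (adjusted p = 0.000361). The liver-type PFKL and the muscle-type PFKM fell, by 0.27 and 0.17, calls lost in 4 and 10 of 16 other settings. None of the 4 passed in CDK2-/- or in R50 cells against WT. PFKFB3 and PFKFB4, which set the level of the allosteric activator of phosphofructokinase, went apart as well. With NU6102 PFKFB3 rose by 0.33 and PFKFB4 fell by 0.48. PFKFB3 was also higher in R50 than in WT, by 0.18 (adjusted p = 0.0373), a call lost in 12 of 16 other settings. Its second probe passed there (0.30, adjusted p = 0.0431) and, unlike the brightest, in CDK2-/- cells (0.36, adjusted p = 0.0202). PFKFB4 passed in neither against WT.

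ALDOC is the brain-type aldolase. At chr17:26900423-26900482 it read 1.12 and 1.14 in WT cells, -0.20 and -0.22 with NU6102, 0.88 and 1.05 in CDK2-/- cells and 2.14 and 2.12 in R50 cells. Both R50 arrays were above and both NU6102 arrays below all others. It fell 2.54-fold with NU6102 (-1.34 ± 0.07, adjusted p = 0.000163), rose in R50 against WT (0.998 ± 0.07, adjusted p = 0.000902) and against CDK2-/- cells (1.16 ± 0.07, adjusted p = 0.000244), and was 5.07-fold higher in R50 than in WT+NU6102 (adjusted p = 1.9e-05). ALDOA, the general aldolase, moved the other way with the drug, up by 0.43 (adjusted p = 0.002). On its brightest probe TPI1, triose phosphate isomerase, differed only between R50 and WT+NU6102, by -0.28, a call lost in 5 of 16 other settings. Its second probe passed there (-0.22, adjusted p = 0.0132) and also in R50 against CDK2-/- cells (-0.19, adjusted p = 0.0328).

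Among the enzymes of the lower pathway, GAPDH, often used as a reference gene, read 7.16 and 7.20 in WT cells, 7.29 and 7.37 with NU6102, 6.96 and 7.03 in CDK2-/- cells and 7.04 and 7.07 in R50 cells. Its arrays with NU6102 were the highest, and it was lower in CDK2-/- cells by 0.19 ± 0.05 (adjusted p = 0.0473, lost in 10 of 16 other settings) and in R50 than in WT+NU6102 by 0.28 (adjusted p = 0.00686). PGAM1 rose by 0.42 with NU6102 and fell by 0.25 in R50 cells, the latter call lost in 6 of 16 other settings. Its second probe gave 0.33 with NU6102, which passed, and -0.17 in R50 cells, which did not (adjusted p = 0.104). PGK1 differed only between R50 and CDK2-/- cells, by 0.19, a call lost in 10 of 16 other settings, and ENO1, the general enolase, was lower in CDK2-/- cells by 0.30 (adjusted p = 0.00996) and did not pass in the other groups against WT. PKM2, the pyruvate kinase, was higher in R50 than in each other group, by 0.35 over WT (adjusted p = 0.0147), 0.54 over CDK2-/- cells and 0.21 over WT+NU6102. The calls over WT and over WT+NU6102 were each lost in 5 of 16 other settings.

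ENO2, the neuronal-type enolase, was measured at chr12:7032482-7032541. It read 0.30 and 0.36 in WT cells, 0.96 and 0.95 with NU6102, -0.88 and -0.77 in CDK2-/- cells and 0.61 and 0.57 in R50 cells. The 4 groups did not overlap. It fell 2.22-fold in CDK2-/- cells (-1.15 ± 0.06, adjusted p = 0.000178), rose by 0.63 ± 0.06 with NU6102 (adjusted p = 0.000655) and in R50 cells by 0.27 (adjusted p = 0.0265, lost in 8 of 16 other settings), and was 2.67-fold higher in R50 than in CDK2-/- cells (adjusted p = 9.1e-05).

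At the fork after pyruvate, LDHA, the lactate dehydrogenase subunit raised in hypoxia, rose by 0.54 with NU6102 (adjusted p = 0.000608). Its second probe gave 0.65, although the files place that probe on chromosome 9 and not at the LDHA gene on chromosome 11. PDK1, which blocks the entry of pyruvate into the mitochondria, fell by 0.64 with NU6102 (adjusted p = 0.00131). It rose by 0.30 in CDK2-/- cells (adjusted p = 0.0289), a call lost in 5 of 16 other settings. These hypoxia targets at the same fork thus moved in opposite directions after the drug.

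**Figure D3:**
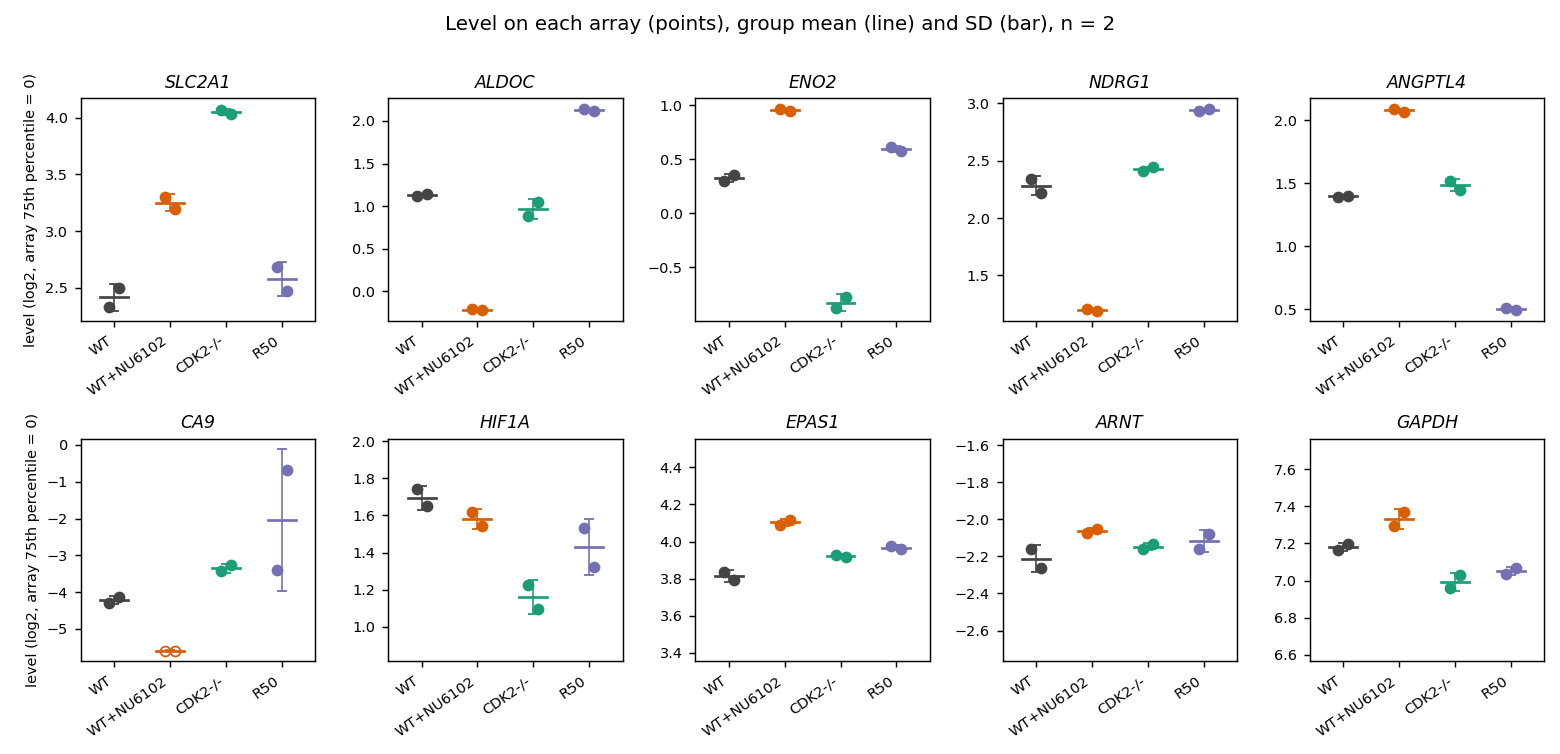
Levels of 10 members (vertical axes, log2 with the 75th percentile of the array at 0, each gene on its own scale) on the 2 arrays of each group, with the group mean (line) and SD (bar); open points are not well above background. ENO2 and ALDOC are tight within each group, and the R50 arrays of CA9 lie at -3.40 and -0.67.

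CA9, a cell-surface carbonic anhydrase that controls pH and is a standard hypoxia marker, rests on 1 probe, which spans an intron at chr9:35677817-35679204 and is shown because the gene's values depend on it.
CA9 probe: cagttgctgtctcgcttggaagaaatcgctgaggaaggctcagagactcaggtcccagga
It read -4.29 and -4.13 in WT cells, -5.60 and -5.59 with NU6102, -3.44 and -3.27 in CDK2-/- cells and -3.40 and -0.67 in R50 cells, and it was not well above background on either array with NU6102. The R50 arrays had an SD of 1.93, 1 of them lying among the CDK2-/- arrays and the other above all arrays. Over both R50 arrays CA9 was at least 6.97-fold higher than in WT+NU6102 (adjusted p = 0.0143). That bound is 2.71-fold for the lower R50 array alone and 17.9-fold for the higher one. No other difference of CA9 passed, but the SE of 0.82 is shared by all comparisons and includes the R50 spread. The measured differences from WT were -1.38 with NU6102 and 0.86 in CDK2-/- cells. The arrays of WT, WT+NU6102 and CDK2-/- cells did not overlap, with SDs of 0.11, 0.01 and 0.12. Without the higher R50 array the measured difference between R50 and WT+NU6102 was 2.19 (adjusted p = 0.000638), that from WT 0.81 (adjusted p = 0.0213) and that from CDK2-/- cells -0.05 (adjusted p = 0.78), and without the lower one they were 4.92, 3.54 and 2.68. The call against WT+NU6102 was lost without either WT+NU6102 array (adjusted p = 0.0566 and 0.0581).

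The secreted hypoxia targets differed in direction. ANGPTL4, a secreted inhibitor of lipoprotein lipase measured at chr19:8439197-8439256, read 1.39 and 1.40 in WT cells, 2.09 and 2.07 with NU6102, 1.52 and 1.45 in CDK2-/- cells and 0.51 and 0.49 in R50 cells. Its arrays were highest with NU6102 and lowest in R50 cells. It rose by 0.68 ± 0.05 with NU6102 (adjusted p = 0.000319), was lower in R50 than in WT by 0.90 ± 0.05 (adjusted p = 0.00045) and in R50 was 2.99-fold below WT+NU6102 (adjusted p = 2.04e-05). ADM, which encodes the vessel-dilating peptide adrenomedullin, moved the other way with the drug, falling by 0.92 ± 0.04 (adjusted p = 0.000151), and was lower in R50 cells as well, by 0.34 (adjusted p = 0.00607). VEGFA, the vessel growth factor, rose by 0.35 with NU6102 (adjusted p = 0.00332) and fell by 0.34 in CDK2-/- cells (adjusted p = 0.00658), and its second probe gave 0.63 and -0.41.

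BNIP3, a mitophagy receptor, rose by 0.63 with NU6102 (adjusted p = 0.000447) and fell by 0.43 in CDK2-/- cells (adjusted p = 0.00243). Its relative BNIP3L was measured by 3 probes that differed with the drug. The brightest, at chr8:26254988-26255047, read 2.25 and 2.27 in WT cells and 2.22 and 1.95 with NU6102, a difference of -0.17 that did not pass (adjusted p = 0.213). The probe at chr8:26270286-26270345 read 1.12 and 1.08 in WT cells and -0.81 and -0.96 with NU6102, a 3.96-fold fall (adjusted p = 8.89e-05). The probe at chr8:26252758-26252817 read -0.76 and -0.83 in WT cells and -2.78 and -2.76 with NU6102, a 3.94-fold fall (adjusted p = 8.54e-05). Those probes, which belong to the RefSeq transcript, were lower with NU6102 than on any other array, and the brightest one is listed under a separate transcript record. The cause of the disagreement was not tested. In R50 against CDK2-/- cells the brightest probe was lower by 0.36, a call lost in 9 of 16 other settings, while the others read 0.14 and 0.10 higher and did not pass. In R50 against WT+NU6102 all 3 probes were higher, by 0.36 for the brightest and by 2.60 and 2.16 for the others. The rise in CDK2-/- against WT was 0.54 on the brightest probe, a call lost in 4 of 16 other settings. There the probe at chr8:26270286-26270345 passed as well (0.48), and the remaining one did not (0.08, adjusted p = 0.407). Against WT, R50 cells were higher past the test only on the probe at chr8:26270286-26270345, by 0.61 (adjusted p = 0.00419).

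Of the 11 members with several tested probes, none had probes past the test in opposite directions, and only SLC2A1 and BNIP3L had probes more than 1 apart in a log2 difference, the largest gap among the rest being 0.33.

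**Figure D4:**
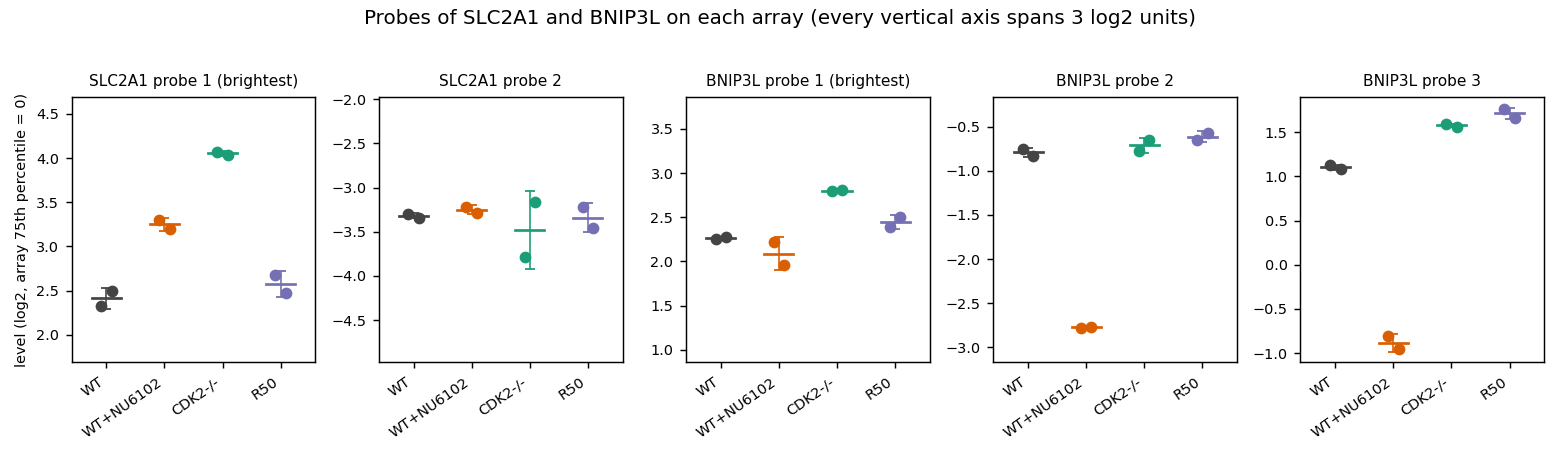
Levels (vertical axes, log2 with the 75th percentile of the array at 0) on each array of the 2 tested SLC2A1 probes and the 3 BNIP3L probes, with the group mean (line) and SD (bar). The brightest SLC2A1 probe is highest in CDK2-/- cells while the other stays near -3.3, and BNIP3L probes 2 and 3 drop with NU6102 while the brightest does not.

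The collagen prolyl hydroxylase subunits moved the same way in the comparisons where both passed. P4HA1 rose by 0.41 and P4HA2 by 0.52 with NU6102. They fell by 0.34 and 0.30 in CDK2-/- cells, calls lost in 7 and 4 of 16 other settings. Both were higher in R50 than in CDK2-/- cells, by 0.63 and 0.34. Neither passed in R50 against WT. In R50 against WT+NU6102 P4HA2 was lower by 0.48 (adjusted p = 0.00115), while P4HA1 did not pass (-0.12, adjusted p = 0.278). The second P4HA2 probe passed with NU6102 (0.41) and in R50 against WT+NU6102 (-0.52). It passed neither in CDK2-/- against WT (-0.24, adjusted p = 0.0706) nor in R50 against CDK2-/- cells (0.13, adjusted p = 0.259).

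NDRG1, a stress-responsive gene strongly induced by low oxygen, was measured at chr8:134249719-134249778. It read 2.34 and 2.22 in WT cells, 1.21 and 1.19 with NU6102, 2.41 and 2.44 in CDK2-/- cells and 2.93 and 2.95 in R50 cells. As for ALDOC, both R50 arrays were the highest and both NU6102 arrays the lowest. It fell 2.12-fold with NU6102 (-1.08 ± 0.06, adjusted p = 0.000169), rose by 0.66 ± 0.06 in R50 against WT (adjusted p = 0.0018) and was 3.34-fold higher in R50 than in WT+NU6102 (adjusted p = 2.25e-05). KDM3A, a histone demethylase, fell by 0.44 with NU6102 (adjusted p = 0.00662). ANKRD37, a small ankyrin repeat protein, fell by 0.55 in CDK2-/- cells (adjusted p = 0.00596), rose by 0.35 in R50 cells (adjusted p = 0.0335, lost in 9 of 16 other settings) and was higher in R50 than in CDK2-/- cells by 0.90 (adjusted p = 0.001).

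The comparisons within a slide share no array, so their directions can be set side by side. Of the members, 13 passed both in WT+NU6102 against WT and in R50 against CDK2-/-, which is 50% of the 26 and 72.2% of the 18. In 6 of them (ENO2, VEGFA, ADM, BNIP3, P4HA1 and P4HA2) the direction was the same, and in 7 (SLC2A1, HK2, PFKP, PGAM1, ALDOC, NDRG1 and ANGPTL4) it was opposite, the PFKP call in R50 against CDK2-/- being lost in 14 of 16 other settings. Among all genes 4566 passed in both, which is 49.7% of those that passed with NU6102 and 63.7% of those in R50 against CDK2-/-. The members' shares thus lie at or near those of all genes. Of the 4566 genes, 36.6% went in the same direction, beside 46.2% of these members.

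A further 100 gene names of the same pathways, chosen for their known roles, were read beside the members, of which 95 were found by name and 82 were tested. With NU6102 27 rose (32.9%) and 20 fell (24.4%), beside 25.2% and 21.9% of all genes. In CDK2-/- cells 17 rose (20.7%) and 21 fell (25.6%), beside 17.5% and 15.1% of all genes. In R50 cells 14 rose (17.1%) and 13 fell (15.9%), beside 10.9% and 13.6%. Among 38 other known hypoxia targets 11 rose (28.9%) and 12 fell (31.6%) with NU6102. In CDK2-/- cells 7 of them rose (18.4%) and 14 fell (36.8%), and in R50 cells 9 rose (23.7%) and 5 fell (13.2%). Neither direction held for the whole group in any of these comparisons.

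CXCR4, a chemokine receptor, had the largest rise among these targets with NU6102, from -3.92 and -3.76 in WT cells to -0.83 and -0.72 (3.07 ± 0.09, adjusted p = 8.54e-05). IGFBP3, which binds insulin-like growth factors, was well above background on both WT arrays and on none with NU6102 or in CDK2-/- cells. It entered the tests through the WT group alone, so no p-value is given for it. Its signal was at least 1.22-fold below WT with NU6102 and at least 1.47-fold below WT in CDK2-/- cells. STC1, a stanniocalcin, was well above background only on the R50 arrays, at least 2.41-fold above WT. Since it entered the tests through the R50 group alone, no p-value is given for it either. CA12, a carbonic anhydrase related to CA9, was not well above background on the R50 arrays, at least 1.88-fold below WT (adjusted p = 0.0342).

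DDIT4, an inhibitor of mTORC1, and BHLHE40, a transcriptional repressor, are known hypoxia targets. They were chosen after their values were seen, and not as the largest rise or fall of their list. DDIT4 read 2.96 and 3.03 in WT cells, 2.75 and 2.75 with NU6102, 1.43 and 1.54 in CDK2-/- cells and 3.92 and 3.83 in R50 cells. Its levels in the knockout and in the resistant cells thus lay on opposite sides of WT, by -1.51 (adjusted p = 0.00011) and 0.88 (adjusted p = 0.00108). BHLHE40 fell by 1.38 with NU6102 (adjusted p = 0.000123), in CDK2-/- cells by 0.67 (adjusted p = 0.000974), and differed from WT by 0.06 in R50 cells (adjusted p = 0.493).

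Around pyruvate, PDK4, a fasting-induced relative of PDK1, was not well above background with NU6102, at least 2.32-fold below WT (adjusted p = 8.54e-05), and rose by 1.66 in CDK2-/- cells (adjusted p = 5.53e-05). The lactate exporter SLC16A1 had the largest rise of this group with NU6102, by 0.59 (adjusted p = 0.000655), and DLD, a subunit of pyruvate dehydrogenase, the largest fall in R50 cells, by 0.50 (adjusted p = 0.0192).

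Of the partners and regulators of HIF, TCEB2 (elongin B), part of the complex that marks HIF for destruction, had the largest rise in CDK2-/- cells, by 1.43 (adjusted p = 0.00013). EGLN2, a further prolyl hydroxylase, was lower in R50 cells by 0.63 (adjusted p = 0.00287), and CITED2, which competes with HIF for its coactivators, fell by 0.69 with NU6102 (adjusted p = 0.000448). Of the other glycolytic isozymes, HKDC1, a hexokinase-like enzyme, was lower in CDK2-/- and in R50 cells by 1.04 and 1.12 on its brightest probe, and its other probe gave -3.04 and -2.55 and fell with NU6102 by 2.33 (adjusted p = 0.00118), where the brightest did not pass. ENO3, the muscle enolase, fell by 0.46 with NU6102 and rose by 0.70 in R50 cells.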

How the data were processed

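RNA of HCT-116 cells was labelled with Cy3 and hybridized to 8 arrays, 2 for each of 4 groups. The authors scanned them and deposited, for each of 62976 spots, a background-subtracted intensity, unscaled between arrays, for which the submitters name Agilent Feature Extraction 11.5.1.1. They also deposited log2 values that, compared with the scanner signal, equal its log2 less 1 constant per array, each probe centred on its median. These were used as an alternative only.

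In R 4.3.3 (with version 1.17.8 of data.table) the 58717 non-control spots were taken to log2 less the array's 75th percentile, outlier spots were left out and spots of a probe averaged. Of 50599 probes 31 were dropped, an array having no usable spot, and 28673 were well above background throughout at least 1 group. Duplicates correlated across probes, which are not independent replicates, with r between 0.994 and 0.996. Limma 3.58.1 fitted the 4 groups together. P-values are two-sided and Benjamini-Hochberg adjusted over the 28673 probes. Precision is limited by the 2 arrays per group. Where a group was not well above background, "at least" gives the brighter group's mean over the higher of the dim probe's own signal and the lowest detected signal on each array. Fits were tested on simulated data. Matplotlib 3.10.9 (Python 3.11.15) drew the figures.

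Each gene stands for its brightest tested probe. Values on every array are given for members past the test with at least a 2-fold difference and for HIF1A, EPAS1, ARNT and GAPDH, and from each related list the genes with the largest rise or fall may be named. The members and lists were chosen with earlier results of these data known. Probe positions are those of the WT and WT+NU6102 files, on hg19, and exon annotation was not used here. Promoters come from RefSeq, GRCh38.p14, and were not lifted between builds. Alternatives were normexp with an offset of 50, quantile normalization, other filters, the deposited log2 values, a trended prior variance, other thresholds, the mean over probes, pairs of groups fitted alone, a replicate block, the methods' tests and leaving out each array.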

Additional observations from a re-analysis of the deposited data

How the results depend on the processing

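Of the 26, 13, 12, 18 and 28 members past the test in WT+NU6102 against WT, CDK2-/- against WT, R50 against WT, R50 against CDK2-/- and R50 against WT+NU6102, 20, 5, 3, 12 and 19 passed under every other normalization, filter and fit at that threshold and without each array. The counts were 26, 17, 14, 18 and 29 under normexp, 25, 15, 11, 18 and 24 under quantile normalization, and 26, 13, 12, 18 and 28 on the deposited log2 values. An adjusted p under 0.01 left 7 in CDK2-/- and 4 in R50 against WT, and testing every probe left the same counts, with 4 members in the F-test over the 4 groups in place of 16. A trended prior variance raised them to 21 and 19, and to 29 in the F-test. With only the arrays compared R50 against WT had 3. At least a 2-fold difference left 2, 2, 0, 3 and 4 in the order above. The methods' t-test gave 16, 1, 0, 4 and 17 after adjustment and 23 in CDK2-/- against WT at an unadjusted p under 0.05, where R50 against WT had 14, and the methods' ANOVA gave 10 members. The replicate numbers did not pair the arrays (correlations of deviations from -0.03 to 0.04), and a replicate block gave 26, 13, 12, 17 and 27, and 6 in the F-test. Without 1 array the counts lay between 22 and 25, 6 and 14, 4 and 9, 13 and 16, and 20 and 26, and between 4 and 7 in the F-test, the lone array of a group being taken to vary like the others. EPAS1 in R50 against WT+NU6102 reversed to 0.053 under quantile normalization, and the cause was not tested. Members near background, above all CA9, have uncertain sizes.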
